A study of Homo sapiens with 12 samples.

Results

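The comparison is between U2OS cells transfected with siRNA against GLE1 and U2OS cells transfected with a control siRNA. Its members were taken by array title, 3 arrays for each siRNA, which makes 6 of the 12 arrays of the series. The other 6 arrays belong to cells with siRNA against DBP5 (3 arrays) or IPPK (3 arrays). U2OS is a human osteosarcoma cell line, so the values describe 1 transformed line. Every group received 20 nM siRNA with a lipid reagent, and the methods for isolating RNA give 48 h of culture. The cells were then opened with a mild detergent, and RNA of the soluble cytoplasmic fraction was hybridised, so a value is the level of a transcript in that fraction. The arrays are one-colour arrays, in which each spot has an intensity in 1 dye. The array number marks the slide, and each of the 3 slides held 1 control and 1 GLE1 siRNA array. Control arrays always had the first place on the slide and GLE1 siRNA arrays the third, so place and siRNA cannot be told apart.

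GLE1 is a conserved protein on the cytoplasmic face of the nuclear pore. With its small cofactor inositol hexakisphosphate, which the kinase IPPK makes, it stimulates the DEAD-box ATPase DBP5 (gene names DDX19B and DDX19A). The ATPase then remodels messenger ribonucleoprotein particles as they leave the pore, so that export receptors are released and the mRNA stays in the cytoplasm. NUP42 and NUP155 bind GLE1 at the pore, and NUP214 with its partner NUP88 holds the ATPase there. GLE1 also has described roles in translation and in stress granules. The comparison asks which transcripts are less or more abundant in the cytoplasm when GLE1 is depleted.

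The antisense strands of the designed siRNAs are shown because they define the treatment, with bases 2 to 8 from the 5′ end, the seed, in capitals. For the control and for GLE1 the study lists a pair of siRNAs each, and which of them was hybridised is not given in the sources used here.
GLE1 siRNA 1: uUCUCUUGgugucccaaggcuucuc
GLE1 siRNA 2: gUUGAGAAucuuugcucugugacggug
Control siRNA 1: uGUAGUUGuacuccagcuugugccc
Control siRNA 2: aUCACCAGcucaccgucuuucauug
The 4 seeds differ from each other.

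The knock-down was read from the GLE1 probe. The probe (NM_001499) had normalised log2 intensities of 8.29, 8.32 and 8.26 on the control arrays 1, 2 and 3 and of 5.40, 4.85 and 4.72 on the GLE1 siRNA arrays 1, 2 and 3. All GLE1 siRNA arrays lay below all control arrays, and the first of them was the highest of the 3. Taken as a ratio, 2 to the power of the mean log2 difference, GLE1 was at 0.102 ± 0.0274 of control (SD of the 3 GLE1 siRNA arrays against the control mean). This is a fall by 3.30 on the log2 scale (limma adjusted p = 2.1e-08). Within slides 1, 2 and 3 the difference was -2.88, -3.47 and -3.54. The fall depended on how background was treated, since it was -1.91 with the normexp correction and -1.85 with the log2 values that the authors deposited, which follow the spot signal without background subtraction. The GLE1 transcript was also lower after GLE1 siRNA than after DBP5 siRNA (log2 difference -2.95, limma adjusted p = 9.0e-08) and after IPPK siRNA (-2.82, limma adjusted p = 8.4e-08).

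**Figure D1:**
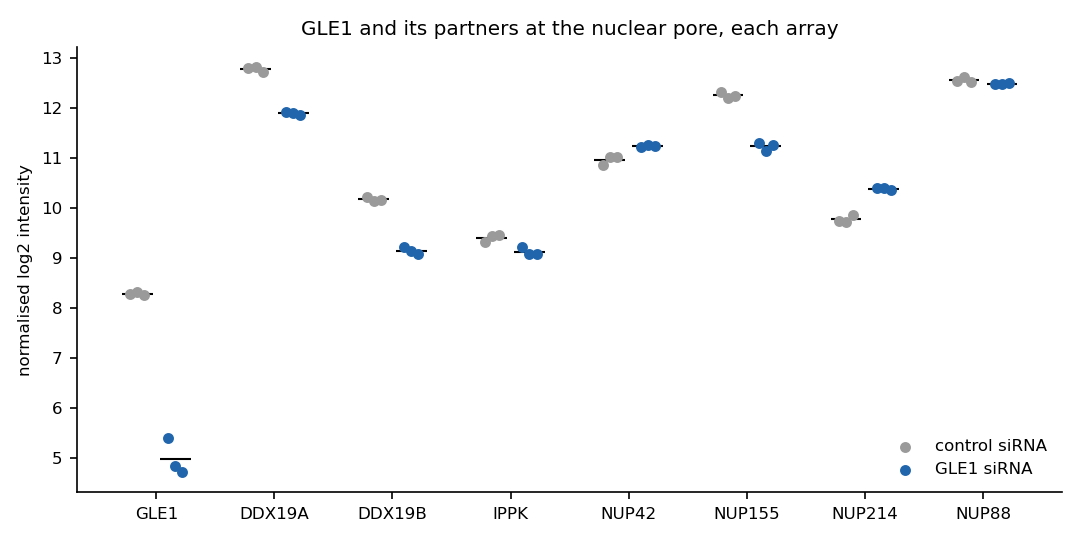
Normalised log2 intensity (vertical axis) of GLE1 and its 7 partners on each control siRNA array (grey points) and each GLE1 siRNA array (blue points), with the group mean as a line. GLE1 drops from between 8.26 and 8.32 to between 4.72 and 5.40, DDX19A, DDX19B and NUP155 lie lower, NUP214 lies higher, and the groups of NUP88 lie next to each other.

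Among the partners of GLE1, the transcripts of the ATPase fell. DDX19B stood at 10.23, 10.15 and 10.15 on the control arrays and at 9.22, 9.14 and 9.08 on the GLE1 siRNA arrays, and its paralog DDX19A at 12.80, 12.81 and 12.73 and 11.92, 11.89 and 11.87. For each of these genes the groups did not overlap, with ratios to control of 0.49 ± 0.0237 and 0.541 ± 0.00934 (limma adjusted p = 3.6e-08 and 7.8e-08). NUP155, a scaffold nucleoporin that binds GLE1, went from 12.32, 12.19 and 12.25 to 11.31, 11.15 and 11.26, again without overlap (0.495 ± 0.028 of control, limma adjusted p = 1.1e-07). NUP214 moved the other way, from 9.74, 9.72 and 9.86 to 10.40, 10.39 and 10.36. Every GLE1 siRNA array of NUP214 lay above every control array, and the ratio was 1.53 ± 0.0254 (limma adjusted p = 8.8e-05). NUP42 rose less, to 1.22 ± 0.0203 of control (limma adjusted p = 0.00194), and its second probe on the array gave 1.47. NUP88 went from 12.54, 12.62 and 12.53 to 12.48, 12.48 and 12.51, a small distance that did not pass (0.952 ± 0.0121 of control, limma adjusted p = 0.175) except with scaling to the 75th percentile (-0.11, limma adjusted p = 0.0436). For IPPK the probes disagreed: the brighter gave 0.821 ± 0.0461 of control (limma adjusted p = 0.00213) and the dimmer 2.08, so no direction is given for IPPK.

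A gene was kept when all 3 arrays of 1 or more siRNAs showed it well above its local background. Of 20821 genes kept, 6549 were lower after GLE1 knock-down (31.5%) and 6361 were higher (30.6%) by limma, a linear model that pools the spread between arrays over genes, at an adjusted p of 0.05. The other 7911 genes (38%) did not pass. Changes of at least 1.5-fold were found in 3690 of the lower and 3337 of the higher genes, changes of at least 2-fold in 1755 and 1626, and changes of at least 4-fold in 297 and 281. Among the genes past limma, 6124 lower and 6073 higher were well above background on all 6 arrays. The counts by fold also take in the remaining genes, some of them well above background in 1 group only. The changes were thus spread over both directions in nearly equal numbers, and the median log2 fold change over all genes was 0.014. The values are relative, because each array was brought to a common scale: a change in the total amount of cytoplasmic RNA would not be seen, and less of an RNA per cell, fewer cells that express it and less of a transcript in the fraction cannot be told apart. Of the lower genes, 6529 were lower within each of the 3 slides, and 6472 had all 3 GLE1 siRNA arrays below all 3 control arrays. For the higher genes these numbers were 6344 and 6260. As for GLE1, the size of some changes depended on the treatment of background: of 281 other genes named here, the log2 fold change was smaller by over 1.5 times in 34 with normexp and in 33 with the deposited values, which differ in normalisation too. The choice of probe mattered as well, and as means over all probes of the gene 17 were smaller and 4 larger by over 1.5 times. Single probes of ATF3, ATG5, BCL2L11, CAPRIN1, CD200, E2F7, ERCC4, FXR1, HDAC11, HNRNPA3, KNL1, NUP42, NXT2, PCK2, RPL22, SNHG7, TCP1, TNPO3 and TUBGCP3 moved the same way past limma, but by amounts that differed over 1.5 times from the probe used. The 19 named genes past limma that did not pass with a paired t-test (adjusted p from 0.0511 to 0.188) were B2M, BCL2, CCL20, CD4, CDH11, COX5B, EPB41L4A-AS1, ETF1, GPI, H1-2, HSP90B1, IPPK, ITGB1, KIF7, PRIM2, RAD50, SPARC, TEK and WAPL. With the slide as a block, 6882 genes were lower and 6797 higher. The 3 arrays a group limit the precision of every value.

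**Figure D2:**
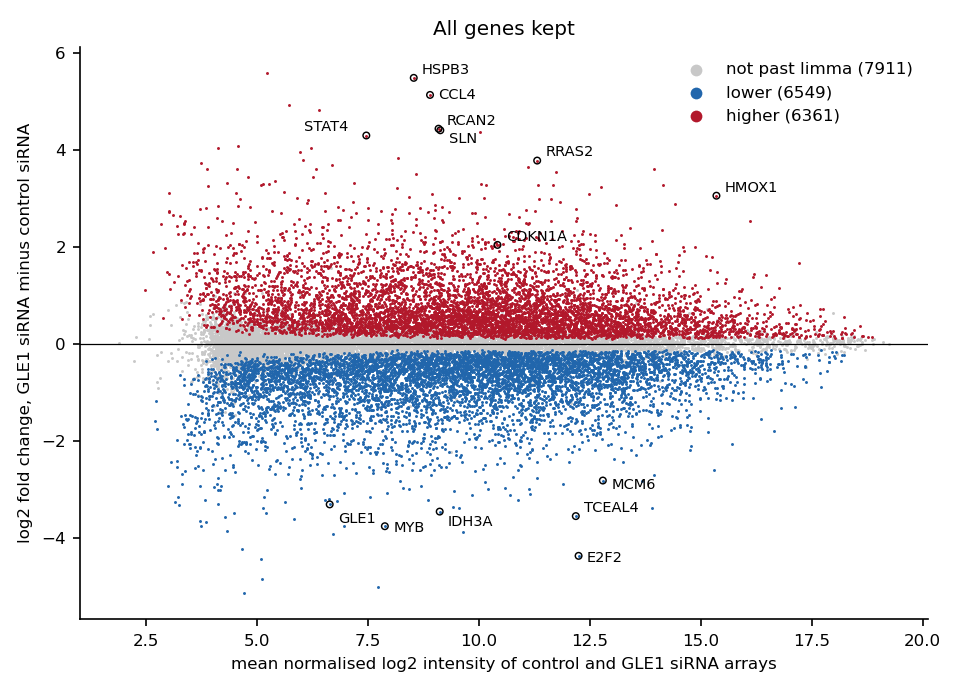
Each point is 1 of the 20821 genes kept, with its mean normalised log2 intensity over the 6 arrays on the horizontal axis and its log2 fold change (GLE1 siRNA minus control siRNA) on the vertical axis; blue genes were lower (6549), red genes higher (6361) and grey genes not past limma (7911). Lower and higher genes occur at all intensities, and circled genes are named in the text.

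The 12 largest falls and the 12 largest rises were taken among genes past limma, well above background on all 6 arrays and without overlap of the groups. Their lack of overlap thus follows from the choice. Apart from GLE1 itself, the 12 largest falls were led by E2F2. This transcription factor drives entry into S phase. E2F2 stood at 14.34, 14.54 and 14.40 on the control arrays and at 10.08, 10.14 and 9.98 on the GLE1 siRNA arrays, 0.0487 ± 0.00269 of control (limma adjusted p = 9.1e-11). The gap between the groups was many times the spread within either. MYB, a transcription factor of proliferating progenitor cells, went from 9.69, 9.94 and 9.64 to 6.02, 6.07 and 5.93 (0.0744 ± 0.00362 of control, limma adjusted p = 2.7e-10), and IDH3A, the catalytic subunit of the NAD-dependent isocitrate dehydrogenase of the citric acid cycle, from 10.89, 10.63 and 11.01 to 7.43, 7.45 and 7.31 (0.0917 ± 0.00476, limma adjusted p = 1.5e-09). Both genes were low on all 3 GLE1 siRNA arrays. A pair of X-linked genes of the transcription elongation factor A-like family fell as well. TCEAL4 stood at 13.93, 14.02 and 13.92 and fell to 10.49, 10.40 and 10.36 (0.0859 ± 0.00399 of control), and TCEAL2 was at 0.0689 ± 0.00695 of control. The other genes among the 12 were the secreted protease KLK12 (0.0748 ± 0.00528 of control), the linker histone gene H1-1 (0.0959 ± 0.00985), FAM111B (0.0967 ± 0.00412), the zinc finger gene ZFP69B (0.0986 ± 0.0023), the growth factor gene EREG (0.109 ± 0.00991) and the pseudogenes ZNF204P (0.0819 ± 0.00726) and GUSBP5 (0.109 ± 0.0172), with limma adjusted p of at most 2.0e-06. With the deposited values the falls of KLK12, ZNF204P and GUSBP5 were -2.39, -1.72 and -1.84 on the log2 scale, against -3.74, -3.61 and -3.20 here.

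These falls were set against the other knock-downs by direct contrasts, which use no control array. The contrasts do share the GLE1 siRNA arrays by which these genes were chosen, so they are not independent of that choice. Over all genes, 28.0% were lower and 26.5% higher after GLE1 than after DBP5 siRNA, and 30.7% were lower and 29.4% higher after GLE1 than after IPPK siRNA. E2F2 was lower after GLE1 siRNA than after DBP5 siRNA (log2 difference -1.72, limma adjusted p = 1.8e-08) and IPPK siRNA (-2.38, limma adjusted p = 1.7e-09). MYB differed in the same way (-2.50 and -3.12, limma adjusted p = 5.7e-09 and 9.9e-10), and so did TCEAL4 (-3.62 and -3.03, limma adjusted p = 1.1e-10 and 2.7e-10). These genes were therefore lowest after GLE1 siRNA among the 3 knock-downs. KLK12 was an exception, being higher after GLE1 than after DBP5 siRNA (1.06, limma adjusted p = 1.1e-05) and IPPK siRNA (0.39, limma adjusted p = 0.00864). EREG was 0.063 against IPPK siRNA and did not pass (limma adjusted p = 0.495).

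The 12 largest rises were led by HSPB3, a small heat shock protein of muscle. HSPB3 stood at 5.64, 6.03 and 5.71 on the control arrays and at 11.30, 11.38 and 11.16 on the GLE1 siRNA arrays, a rise of 45-fold (limma adjusted p = 2.5e-10). CCL4, a chemokine that attracts monocytes and T cells, rose 35.3-fold, from 6.36, 6.30 and 6.34 to 11.44, 11.45 and 11.53 (limma adjusted p = 2.0e-10). In both genes each GLE1 siRNA array was far above each control array. RCAN2, an inhibitor of the phosphatase calcineurin, rose from 6.80, 6.89 and 6.92 to 11.38, 11.39 and 11.18 (21.8-fold, limma adjusted p = 9.1e-11), and STAT4, a transcription factor downstream of cytokine receptors, from 5.30, 5.39 and 5.26 to 9.48, 9.66 and 9.72 (19.7-fold, limma adjusted p = 2.7e-09). Neither gene overlapped between the groups. As means over all probes of the gene, the log2 rises of RCAN2 and STAT4 were 2.34 and 2.17, against 4.44 and 4.30 by the brightest probe. Sarcolipin (SLN), a small regulator of the calcium pump of muscle, rose 21.3-fold, and the Ras-type GTPase genes RRAD and RRAS2 rose 14.4-fold and 13.8-fold. ODAPH (20.7-fold), LURAP1L (16.6-fold), the growth factor-like gene IGFL3 (13-fold), the annexin gene ANXA8L1 (12.6-fold) and the peroxidasin-like gene PXDNL (12.3-fold) completed the 12, with limma adjusted p of at most 2.7e-09. With the deposited values the log2 rises of IGFL3, LURAP1L and PXDNL were 2.08, 2.20 and 1.73, against 3.70, 4.05 and 3.62 here. All 12 were also higher after GLE1 siRNA than after each of the other knock-downs, in contrasts that share the GLE1 siRNA arrays by which the 12 were chosen. HSPB3, for example, differed by 2.49 from DBP5 and by 5.11 from IPPK siRNA on the log2 scale (limma adjusted p = 3.8e-08 and 3.9e-10), and CCL4 by 5.80 and 4.73 (limma adjusted p = 3.0e-10 and 3.4e-10).

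Some genes were well above background in 1 group and on no array of the other, which gives a bound in place of a fold. There were 201 such genes with signal on all 3 control arrays and none on the GLE1 siRNA arrays, and 126 the other way. The bound sets the mean of the bright group against the lowest signal that counted as well above background on each dim array, or the dim signal itself where that was higher. That lowest signal is taken over all probes of the array, and the limit of a single probe can be higher. The words at least are meant by this definition only. These genes were picked for being absent from 1 group, so no p is given for them. By its brighter probe, the membrane glycoprotein gene CD200 was at least 14-fold lower after GLE1 siRNA. A dimmer CD200 probe was well above background on 1 GLE1 siRNA array and gave a log2 fold change of -2.70, so the bound holds for the brighter probe only. CBLN4 was at least 11.9-fold, GASK1A at least 11.7-fold, the relaxin gene RLN1 at least 8.54-fold and MDGA1 at least 8.2-fold lower. In the other direction, WNT11, a secreted Wnt ligand, was at least 22.5-fold higher and LY6D at least 20.2-fold higher. CDH1, the cadherin of epithelial junctions, was at least 8.42-fold higher, ATP6V0D2, a subunit of the vacuolar proton pump, at least 7.71-fold and CCDST at least 7.63-fold higher. These bounds hold for the background-subtracted signal only. With the deposited values the log2 changes were -1.75, -1.57, -1.56, -1.26 and -1.30 for CD200, CBLN4, GASK1A, RLN1 and MDGA1. For WNT11, LY6D, CDH1, ATP6V0D2 and CCDST they were 1.95, 2.26, 1.16, 1.11 and 1.02, so all 10 kept their direction with much smaller changes.

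To see which processes these genes belong to, 50 gene lists were described by how many members passed in each direction and by their median, read against 31.5% lower and 30.6% higher over all genes. The lists overlap in part, and some hold related genes: that of metallothioneins has 2 other genes of zinc control, and that of cytosolic heat shock proteins has mitochondrial chaperones and heat shock factors. No test of a list was run. The 12 lists with the lowest medians were those of replication, the cell cycle, mitosis, histones, recombination and the damage checkpoint, and p53 targets had the highest median, with 92.9% higher. Medians near 0 moved by over 1.5 times in some settings, as did those of collagens and matrix, export factors, lysosome, epithelial and endothelial markers.

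**Figure D3:**
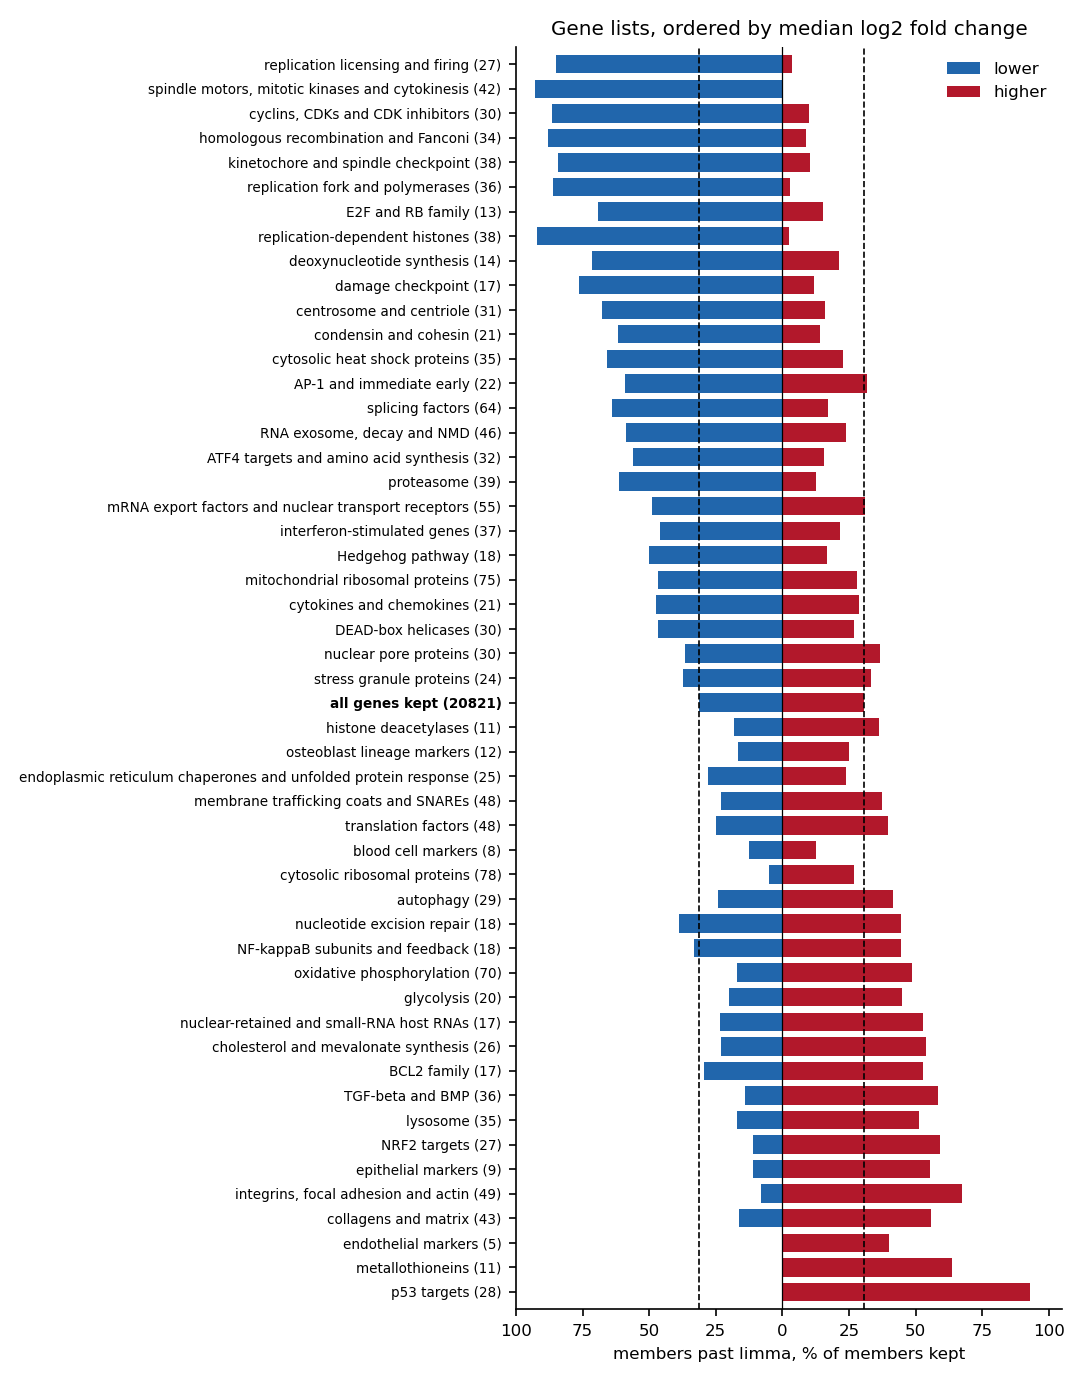
Share of the members kept of each gene list (number kept in brackets) that were lower (blue, to the left) or higher (red, to the right) after GLE1 knock-down by limma; lists are ordered by median log2 fold change from top (lowest) to bottom, and the dashed lines mark the shares over all genes, 31.5% lower and 30.6% higher. Lists of replication, mitosis and repair lie at the top, and lists of adhesion, matrix and p53 targets lie at the bottom.

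Most replication genes fell. Of the 27 genes that load and fire the replicative helicase, 23 fell, 1 rose and 3 did not pass (85.2% lower; median log2 fold change -1.23). MCM6, a subunit of the MCM helicase, stood at 14.20, 14.27 and 14.12 on the control arrays and at 10.90, 11.65 and 11.62 on the GLE1 siRNA arrays. Every GLE1 siRNA array was lower than every control array, and the first was the lowest (0.143 ± 0.0388 of control, limma adjusted p = 1.4e-07). ORC1, which marks origins, was at 0.247 ± 0.0113 of control, and CDC45, which activates the helicase, at 0.269 ± 0.018 (limma adjusted p = 2.2e-09 and 1.6e-09). Geminin (GMNN), the inhibitor of licensing, was the gene of the list that rose, to 1.71 ± 0.0277 of control (limma adjusted p = 8.0e-07). Of the 36 genes of the fork and its polymerases, 31 fell, 1 rose and 4 did not pass (median -0.99). DSCC1, part of the loader of sliding clamps, was at 0.21 ± 0.00778 of control, the histone chaperone gene ASF1B at 0.239 ± 0.00868 and the checkpoint mediator gene CLSPN at 0.246 ± 0.0199 (limma adjusted p of at most 6.4e-07). PRIM2, a primase subunit, rose to 1.24 ± 0.077 (limma adjusted p = 0.00117), but another probe of PRIM2 was lower (log2 fold change -1.50, limma adjusted p = 5.9e-08), so its direction is open. Within slides 1, 2 and 3 the list medians were -1.29, -1.29 and -1.11 for licensing and -1.03, -0.97 and -1.01 for the fork.

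Of 14 genes of deoxynucleotide synthesis, 10 fell and 3 rose (median -0.75). RRM2, the subunit of ribonucleotide reductase that is made in S phase, went from 12.81, 12.74 and 12.80 to 10.48, 10.45 and 10.35 and did not overlap between the groups (0.195 ± 0.00899 of control, limma adjusted p = 1.8e-09). DUT, which removes dUTP, was at 0.24 ± 0.00211 and thymidylate synthase (TYMS) at 0.289 ± 0.0181 of control (limma adjusted p = 8.3e-08 and 1.3e-08). The 3 genes that rose were RRM2B, the p53-inducible subunit of ribonucleotide reductase (2.68-fold, limma adjusted p = 5.3e-09), deoxycytidine kinase (DCK, 2.45-fold, limma adjusted p = 3.9e-07) and NME1 (1.18-fold, limma adjusted p = 0.00194). So RRM2 and RRM2B, alternative subunits of the same enzyme, moved in opposite directions.

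The regulators of the cycle showed the same division. In the E2F and RB family, 9 of 13 genes fell and 2 rose (median -0.87). Beside E2F2, the repressor E2F8 was at 0.18 ± 0.00617 and the activator E2F1 at 0.278 ± 0.0144 of control (limma adjusted p = 5.0e-09 and 1.5e-08), while E2F7 rose 2.68-fold and E2F5 2.64-fold (limma adjusted p = 3.3e-06 and 2.6e-08). Of 30 cyclins, CDKs and their inhibitors and phosphatases, 26 fell and 3 rose (median -1.15). Cyclin E2 (CCNE2), which acts at the entry into S phase, stood at 10.24, 10.41 and 10.21 and fell to 7.59, 7.61 and 7.55. The 3 GLE1 siRNA arrays lay close together and far below control (0.154 ± 0.00301 of control, limma adjusted p = 4.7e-10). The phosphatase gene CDC25A was at 0.196 ± 0.0185 and CCNF at 0.248 ± 0.0128 of control (limma adjusted p = 1.2e-09 and 2.3e-08). The genes that rose were the CDK inhibitor CDKN1A, from 9.51, 9.31 and 9.37 to 11.61, 11.36 and 11.36 (4.14-fold, limma adjusted p = 6.4e-09), and the D-type cyclins CCND2 (3.94-fold, limma adjusted p = 4.3e-09) and CCND1 (1.56-fold, limma adjusted p = 1.6e-05). CDKN1A and these G1 cyclins were above control on all 3 GLE1 siRNA arrays. The other CDK inhibitors kept and the remaining D-type cyclin were among the 26 genes that fell.

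**Figure D4:**
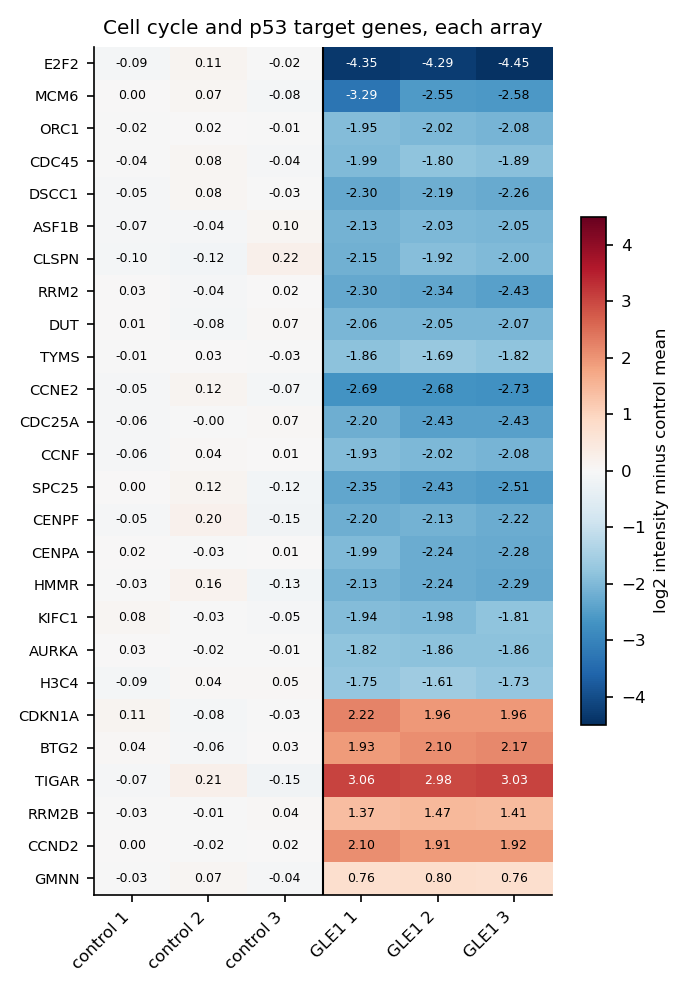
Log2 intensity minus the control mean (colour and printed value) of 26 genes named in the text, in rows, on each of the 6 arrays, in columns. The control arrays stay near their mean, the 20 genes from E2F2 to H3C4 are low on all 3 GLE1 siRNA arrays, and the 6 from CDKN1A to GMNN are high on all 3.

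Most mitotic genes fell too. Of 42 genes for spindle motors, mitotic kinases and cytokinesis, 39 fell (92.9%), 0 rose and 3 did not pass (median -1.22). HMMR, a spindle protein that also binds hyaluronan, stood at 13.18, 13.37 and 13.08 and fell to 11.08, 10.97 and 10.92, and the kinase gene AURKA went from 14.09, 14.04 and 14.05 to 12.24, 12.20 and 12.20. Neither overlapped between the groups (0.215 ± 0.0125 and 0.278 ± 0.00405 of control, limma adjusted p = 2.6e-08 and 1.4e-09). The minus-end motor gene KIFC1 was at 0.267 ± 0.0167 of control (limma adjusted p = 1.3e-05). Of 38 kinetochore and spindle checkpoint genes, 32 fell and 4 rose (median -1.03). SPC25, part of the complex that binds microtubules, went from 14.46, 14.58 and 14.33 to 12.10, 12.03 and 11.95 without overlap (0.185 ± 0.00997 of control, limma adjusted p = 2.2e-09). CENPF was at 0.22 ± 0.00739 and CENPA, the histone H3 variant of centromeres, at 0.222 ± 0.0249 of control (limma adjusted p of at most 6.4e-09). KNL1 (1.38-fold) and MAD1L1 (1.34-fold) were among those that rose (limma adjusted p = 0.00159 and 0.00199). CENPP is counted with them by its brightest probe (1.55-fold, limma adjusted p = 0.01), but another probe was lower (-0.39, limma adjusted p = 0.00398) and their mean did not pass (0.12, limma adjusted p = 0.333), so the direction of CENPP is open.

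Direct contrasts placed most of the mitotic genes lower after GLE1 siRNA than after the other siRNAs. In the spindle list, 36 of 42 genes were lower than after DBP5 siRNA, against 28.0% of all genes, and 40 were lower than after IPPK siRNA, against 30.7%. AURKA differed by -1.48 and -1.35 (limma adjusted p = 1.3e-08 and 1.5e-08), and KIFC1 by -0.98 and -1.26 (limma adjusted p = 0.00203 and 3.4e-04). In the licensing list, 24 of 27 were lower than after DBP5 and 24 lower than after IPPK siRNA. GMNN, which rose against control, was itself lower than after either (-0.15 and -0.97, limma adjusted p = 0.0446 and 1.9e-07).

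The centrosome and the chromosome scaffold held genes of both directions. Of 31 centrosome and centriole genes, 21 fell and 5 rose (median -0.48). TUBGCP3, a component of the gamma-tubulin ring, was at 0.293 ± 0.00433, KIZ, which stabilises spindle poles, at 0.336 ± 0.0148 and CEP55, which acts in the final cut between daughter cells, at 0.346 ± 0.0176 of control (limma adjusted p of at most 8.3e-09). TUBGCP4 and TUBGCP6, of the same ring, rose 2.37-fold and 1.74-fold, and CEP63 rose 1.7-fold (limma adjusted p of at most 9.0e-06). The subunits of the gamma-tubulin ring thus went in both directions. Of 21 condensin and cohesin genes, 13 fell and 3 rose (median -0.48). ESCO2, which acetylates cohesin in S phase, was at 0.141 ± 0.00215 of control, the condensin subunit SMC4 at 0.301 ± 0.0143 and sororin (CDCA5) at 0.315 ± 0.00174 (limma adjusted p of at most 3.6e-08). PDS5B rose 2.35-fold (limma adjusted p = 1.2e-07), and ESCO1 and WAPL rose to 1.24 ± 0.0374 and 1.23 ± 0.0541 of control (limma adjusted p = 0.00122 and 0.00277). Another probe of WAPL was lower (-0.71, limma adjusted p = 4.5e-04), so the direction of WAPL is open.

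The DNA repair lists are described by their counts, and differences between lists were not tested. Of 34 genes of homologous recombination and the Fanconi pathway, 30 fell and 3 rose (median -1.09). UBE2T, the ubiquitin-conjugating enzyme of the Fanconi pathway, fell to 0.226 ± 0.0172 of control, with no overlap between the groups (limma adjusted p = 4.3e-09). The genes that rose were NBN (1.83-fold), RAD52 (1.52-fold) and RAD50 (1.19-fold), of which NBN and RAD50 sit in the complex that senses double-strand breaks (limma adjusted p = 1.1e-06, 3.4e-05 and 0.00706). MRE11, of the same complex, fell to 0.794 of control (limma adjusted p = 0.0106). Of 17 damage checkpoint genes, 13 fell and 2 rose (median -0.72), with the kinase gene CHEK1 at 0.284 ± 0.0106 and TOPBP1 at 0.371 ± 0.00588 of control (limma adjusted p = 5.0e-10 and 1.4e-09), while ATR and RAD17 rose to 1.73 ± 0.0419 and 1.28 ± 0.0935 (limma adjusted p = 9.1e-08 and 0.00299). Nucleotide excision repair had no such lean: 7 of 18 genes fell and 8 rose (median 0.11). The nuclease genes ERCC5 and ERCC4 went to 0.491 ± 0.0248 and 2.24 ± 0.102 of control (limma adjusted p = 5.5e-07 and 3.0e-06), that is, in opposite directions, and the log2 rise of ERCC4 was 0.76 with the deposited values, against 1.16 here.

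Replication-dependent histone genes, whose mRNAs are made in S phase and end in a stem-loop in place of a poly(A) tail, were lower in 35 of 38 cases (92.1%; median -0.85). H3C4 went from 15.55, 15.68 and 15.69 to 13.89, 14.03 and 13.90, and all GLE1 siRNA arrays were below control (0.309 ± 0.0166 of control, limma adjusted p = 1.6e-07). H2AC13 was at 0.338 ± 0.0241 and H2AC4 at 0.343 ± 0.0172 (limma adjusted p = 9.1e-09 and 1.3e-08), and H1-2 was the gene that rose, to 1.22 ± 0.0473 of control (limma adjusted p = 0.00244), but not past limma with quantile normalisation (limma adjusted p = 0.0548). Histone genes resemble each other in sequence, so that their probes may share signal.

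The promoters of the replication and mitotic lists were compared with known cell cycle motifs, because genes that peak together in the cycle share them. All members kept that have a promoter were counted, whatever their direction. For each promoter the RefSeq table (GRCh38.p14) gives 300 bases, most of them before the start of transcription and the last after it. The letters searched, on both strands, were TTTGAA, which stands for the cell cycle genes homology region, then TTTGGCGC, TTTCCCGC or TTTCGCGC, which stand for E2F-type sites and can overlap each other, and the CCAAT box. Of the licensing list, 23 genes had a promoter in the table, and E2F-type letters were in 52.2% of them, against 2.74% of all 35116 promoters and 4.09% of those of the genes kept. Of the fork list they were in 35.5% of 31 promoters. Of the spindle list, TTTGAA was in 72.2% of 36 promoters and of the kinetochore list in 41.9% of 31, against 15.2% of all, or 1377 of the 12857 of the genes kept. CCAAT was in 60.9%, 58.1%, 83.3% and 54.8% of these 4 lists in the same order, against 34.6% and 36.5%. Promoters of 23 p53 targets, most of which rose, held CCAAT in 52.2% of cases, E2F-type letters in 3 cases and TTTGAA in 1, so CCAAT was not particular to the falling lists. A promoter of each list is printed, that of the gene with the largest fall whose promoter holds E2F-type letters (replication lists) or TTTGAA (mitotic lists), with the matches to any of the motifs in capitals, read 5′ to 3′ along the strand of the gene.
MCM6 (chr2:135876394-135876693, minus strand): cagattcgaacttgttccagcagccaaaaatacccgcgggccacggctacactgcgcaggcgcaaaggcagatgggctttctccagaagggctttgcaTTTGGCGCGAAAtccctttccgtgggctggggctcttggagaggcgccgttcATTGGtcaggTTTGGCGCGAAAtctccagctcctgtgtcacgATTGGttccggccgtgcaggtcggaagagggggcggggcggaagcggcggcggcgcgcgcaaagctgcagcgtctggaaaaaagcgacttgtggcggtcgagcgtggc
CLSPN (chr1:35769929-35770228, minus strand): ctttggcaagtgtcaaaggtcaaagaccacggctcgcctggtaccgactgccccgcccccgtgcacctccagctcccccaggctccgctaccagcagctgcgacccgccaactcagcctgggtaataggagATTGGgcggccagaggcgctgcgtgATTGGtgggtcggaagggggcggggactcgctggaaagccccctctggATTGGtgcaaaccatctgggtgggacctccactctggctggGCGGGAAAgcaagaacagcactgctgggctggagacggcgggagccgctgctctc
SPC25 (chr2:168890381-168890680, minus strand): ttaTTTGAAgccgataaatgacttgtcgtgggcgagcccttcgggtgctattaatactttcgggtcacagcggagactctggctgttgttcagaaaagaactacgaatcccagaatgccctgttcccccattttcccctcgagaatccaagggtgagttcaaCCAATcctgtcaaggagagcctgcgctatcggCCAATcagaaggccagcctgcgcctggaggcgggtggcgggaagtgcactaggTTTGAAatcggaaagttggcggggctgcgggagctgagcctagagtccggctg
HMMR (chr5:163460382-163460681, plus strand): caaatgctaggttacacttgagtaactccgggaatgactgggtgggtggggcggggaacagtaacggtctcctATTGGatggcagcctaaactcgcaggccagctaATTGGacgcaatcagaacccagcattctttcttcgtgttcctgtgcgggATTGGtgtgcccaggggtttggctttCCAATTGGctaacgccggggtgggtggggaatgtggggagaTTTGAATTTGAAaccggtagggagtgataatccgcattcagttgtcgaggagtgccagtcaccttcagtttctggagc
In MCM6, TTTGGCGC overlaps with the reverse of TTTCGCGC at 2 places. CLSPN has 1 E2F-type match, the reverse of TTTCCCGC, near its start. SPC25 and HMMR each hold TTTGAA at 2 places, adjacent to each other in HMMR. A match is a description of letters and does not show that a factor binds.

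The motifs were also followed over all 12857 genes kept that have a promoter in the table, of which 33.5% were lower and 33.8% higher (median 0.017). Among the 526 genes with E2F-type letters, 240 were lower (45.6%) and 141 higher (26.8%), with a median of -0.14. Among the 569 with both TTTGAA and CCAAT, 256 were lower (45%) and 143 higher (25.1%), with a median of -0.15. TTTGAA and CCAAT each gave a weaker lean, with 38.6% lower and 27.9% higher among the 1377 genes with TTTGAA and 37.4% lower and 30.6% higher among the 4688 with CCAAT. Of the 7094 genes with none of the motifs, 30.5% were lower and 36.6% higher. The cell cycle lists are part of these numbers. Most genes that hold the letters were thus not lower.

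Most targets of p53 rose. Of 28 genes, 26 rose (92.9%), 0 fell and 2 did not pass (median 1.05, within slides 1.07, 1.06 and 1.00). TIGAR, a phosphatase that slows glycolysis, stood at 8.55, 8.83 and 8.46 on the control arrays and at 11.67, 11.60 and 11.64 on the GLE1 siRNA arrays (8.13-fold higher, limma adjusted p = 2.5e-09). BTG2, an antiproliferative cofactor of mRNA deadenylation, went from 11.31, 11.21 and 11.30 to 13.21, 13.37 and 13.44 (4.19-fold, limma adjusted p = 7.4e-08). In both, as in CDKN1A, every GLE1 siRNA array was above every control array. Against DBP5 siRNA, 18 of the 28 were higher after GLE1 siRNA, and against IPPK siRNA 21 were, read against 26.5% and 29.4% of all genes. For CDKN1A these differences were 1.46 and 1.37 on the log2 scale (limma adjusted p = 1.3e-07 and 1.4e-07), and for TIGAR 1.54 and 0.99 (limma adjusted p = 4.4e-07 and 9.2e-06). In the BCL2 family, which sets the threshold for apoptosis, 5 of 17 fell and 9 rose (median 0.27). The death-promoting genes BBC3 and BIK rose 2.73-fold and 1.9-fold (limma adjusted p = 1.5e-06 and 1.1e-07), and so did the survival gene BCL2A1, 2.05-fold (limma adjusted p = 7.9e-08). The survival genes BCL2L2 and BCL2 were at 0.309 ± 0.00347 and 0.649 ± 0.0536 of control, and the death-promoting BCL2L11 at 0.517 ± 0.045 (limma adjusted p of at most 4.2e-05). A dimmer probe of BCL2A1 was lower (-1.04, limma adjusted p = 7.8e-06), so the direction of BCL2A1 is open, and a dimmer probe of BCL2L11 did not pass (0.14, limma adjusted p = 0.383).

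Adhesion and matrix genes were higher more often than lower. Of 49 genes for integrins, focal adhesions and actin, 33 rose (67.3%) and 4 fell (median 0.48). Vinculin (VCL), which links integrins to actin, went from 8.85, 8.78 and 8.87 to 11.35, 11.35 and 11.69, without overlap (6.17-fold, limma adjusted p = 4.1e-09). Calponin (CNN1) rose 5.25-fold and parvin (PARVA) 5.03-fold (limma adjusted p = 3.4e-10 and 3.7e-09). The integrin subunits ITGA2, ITGA1 and ITGB1 fell, to 0.417 ± 0.0456, 0.49 ± 0.0905 and 0.594 ± 0.0869 of control (limma adjusted p = 5.9e-06, 4.4e-04 and 0.00389), but of the 13 integrin subunits kept 7 rose and 3 fell. With the deposited values the log2 changes of ITGA2 and ITGA1 were -0.73 and -0.55, against -1.26 and -1.03 here. Of 43 genes for collagens, the matrix and its enzymes, 24 rose and 7 fell (median 0.50, 0.30 with the deposited values, within slides 0.17, 0.55 and 0.74). COL5A2 rose 3.22-fold and COL12A1 3.09-fold (limma adjusted p = 1.6e-08 and 1.9e-06), while the laminin chain LAMA4 was at 0.357 ± 0.00461, COL8A1 at 0.39 ± 0.0736 and COL13A1 at 0.497 ± 0.0755 of control (limma adjusted p of at most 3.0e-05). Another probe of LAMA4 did not pass (0.063, limma adjusted p = 0.766).

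In the TGF-beta and BMP list, 21 of 36 genes rose and 5 fell (median 0.33). The ligand TGFB2 stood at 8.09, 8.08 and 8.18 and rose to 10.19, 10.24 and 10.32, so that all GLE1 siRNA arrays were above control (4.4-fold, limma adjusted p = 2.2e-08). The ubiquitin ligase gene SMURF2 rose 3.24-fold and the receptor gene BMPR2 2.61-fold (limma adjusted p = 1.6e-08 and 2.8e-05). On the log2 scale these rises were 1.04 and 0.69 with the deposited values, against 1.70 and 1.38 here. The ligands BMP6 and BMP4 and the antagonist noggin (NOG) fell, to 0.44 ± 0.0146, 0.508 ± 0.0149 and 0.705 ± 0.0355 of control (limma adjusted p of at most 3.6e-05). Of 18 Hedgehog genes, 9 fell and 3 rose (median -0.12, between -0.031 and -0.20 in other settings). The decoy receptor HHIP was at 0.231 ± 0.045, the transcription factor GLI1 at 0.356 ± 0.0301 and the signal transducer SMO at 0.542 ± 0.0124 of control (limma adjusted p of at most 1.0e-06), and STK36, KIF3A and KIF7 rose to 1.55 ± 0.0241, 1.5 ± 0.0429 and 1.21 ± 0.0425 (limma adjusted p of at most 0.0134), where KIF7 did not pass without control array 2 (limma adjusted p = 0.0507). HHIP and SMO were lower than after DBP5 siRNA (-0.79 and -1.51) and IPPK siRNA (-1.23 and -1.32; limma adjusted p of at most 3.3e-04), whereas GLI1 was higher than after IPPK siRNA (0.48, limma adjusted p = 0.00393).

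Inflammatory genes moved in both directions. Of 21 cytokines and chemokines kept, 10 fell and 6 rose (median -0.10, or 0.072 without control array 2). This list does not hold CCL4, whose rise is given above. IL1B stood at 6.10, 6.31 and 6.17 and fell to 4.17, 4.29 and 4.11, and IL32 rose from 10.98, 10.90 and 11.16 to 12.80, 12.72 and 12.76. Neither overlapped between the groups (0.249 ± 0.0158 and 3.36 ± 0.0939 of control, limma adjusted p = 1.7e-07 and 3.4e-08). The fall of IL1B was much smaller with the deposited values, -0.68 on the log2 scale, and that of CXCL3 was -1.13 against -1.73. The chemokine genes CXCL3 and CCL20 were at 0.302 ± 0.0185 and 0.375 ± 0.12 of control (limma adjusted p = 3.6e-06 and 1.5e-04), and IL11 and IL18 rose 1.8-fold and 1.7-fold (limma adjusted p = 9.9e-06 and 1.9e-06). Although IL1B was lower than in control, it was higher than after DBP5 siRNA (1.46, limma adjusted p = 3.0e-06) and IPPK siRNA (1.84, limma adjusted p = 4.2e-07). In the whole list, 14 of 21 genes were higher after GLE1 than after DBP5 siRNA and 0 were lower, and against IPPK siRNA the numbers were 14 and 3. Of 18 NF-kappaB subunits and feedback genes, 6 fell and 8 rose (median 0.11), among them TRAF1 (4.13-fold), the inhibitor of apoptosis BIRC3 (2.14-fold) and the ubiquitin-editing enzyme TNFAIP3 (1.57-fold; limma adjusted p of at most 2.9e-05), while NFKBIZ, TRAF2 and TRAF3 were at 0.446 ± 0.00737, 0.601 ± 0.0125 and 0.66 ± 0.0149 of control (limma adjusted p of at most 4.3e-05). For TRAF1 and NFKBIZ the log2 changes were 1.30 and -0.72 with the deposited values, against 2.04 and -1.17 here. BIRC3 was higher than after DBP5 siRNA (1.64) and lower than after IPPK siRNA (-3.69; limma adjusted p = 2.4e-08 and 2.7e-10).

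Of 37 interferon-stimulated genes, 17 fell, 8 rose and 12 did not pass (median -0.17). IFI44L went from 8.14, 8.09 and 8.12 to 6.14, 5.99 and 6.06, with all GLE1 siRNA arrays below control (0.242 ± 0.0123 of control, limma adjusted p = 3.7e-09). IFI44 was at 0.242 ± 0.0189 and the RNA sensor gene OAS2 at 0.275 ± 0.0313 of control (limma adjusted p = 6.3e-08 and 3.7e-07), and another probe of OAS2 did not pass (0.15, limma adjusted p = 0.735). The log2 falls of IFI44L and OAS2 were -1.31 and -1.17 with the deposited values, against -2.05 and -1.86 here. ISG20 rose 2.33-fold, the peptide transporter gene TAP1 2.07-fold and B2M 1.29-fold (limma adjusted p of at most 4.6e-04), of which TAP1 and B2M serve antigen presentation. Of 22 AP-1 and immediate early genes, 13 fell and 7 rose (median -0.39). DUSP6 and DUSP1, phosphatases of MAP kinases, moved in opposite directions, to 0.185 ± 0.021 and 3.02 ± 0.0326 of control (limma adjusted p = 1.8e-08 and 4.7e-09). EGR1 and FOS, which respond to growth factors, were at 0.414 ± 0.0345 and 0.487 ± 0.00562, and JUN and ATF3, which respond to stress as well, rose 3.25-fold and 2.33-fold (limma adjusted p of at most 9.0e-07).

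Stress responses did not rise together. Of 35 genes for heat shock proteins of the cytosol and mitochondria, chaperonins, their cofactors and heat shock factors, 23 fell and 8 rose (median -0.40). HSPA1A, the inducible Hsp70, stood at 14.85, 14.87 and 14.91 and fell to 12.83, 12.80 and 12.82, without overlap (0.239 ± 0.00285 of control, limma adjusted p = 3.6e-10), and its near copy HSPA1B, whose probe may share signal, was at 0.311 ± 0.00647 (limma adjusted p = 1.0e-09). The small heat shock genes CRYAB and HSPB8 rose 3.33-fold and 2.45-fold (limma adjusted p = 1.3e-08 and 3.5e-08), as HSPB3 did. The chaperonin subunits TCP1 and CCT5 went to 0.475 ± 0.0206 and 2.35 ± 0.186 of control (limma adjusted p = 4.2e-07 and 0.00294). Of 27 targets of NRF2, the regulator of the oxidative stress response, 16 rose and 3 fell (median 0.34). Heme oxygenase (HMOX1) went from 13.92, 13.88 and 13.66 to 16.90, 16.98 and 16.78, far above control on each array (8.36-fold, limma adjusted p = 5.0e-10). It was higher than after DBP5 siRNA (2.09) and lower than after IPPK siRNA (-0.48; limma adjusted p = 1.2e-08 and 3.1e-04). AKR1C1 rose 4.82-fold and the exporter gene ABCC1 3-fold, whereas the cystine transporter gene SLC7A11, PIR and UGDH were at 0.449 ± 0.0802, 0.617 ± 0.0449 and 0.79 ± 0.00959 of control (limma adjusted p of at most 2.7e-04).

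Of 9 metallothioneins, which bind zinc and copper, 6 rose and 0 fell (median 0.72), with MT1G at 3.11 ± 0.231, MT1M at 1.89 ± 0.101 and MT1X at 1.7 ± 0.0495 of control (limma adjusted p of at most 1.8e-06). The log2 rise of MT1G with the deposited values was 0.62, against 1.64 here. These genes are close copies, so their probes may share signal. Of 32 targets of ATF4 and genes of amino acid synthesis, 18 fell and 5 rose (median -0.24). PCK2, CHAC1 and asparagine synthetase (ASNS) were at 0.379 ± 0.0332, 0.419 ± 0.0269 and 0.425 ± 0.0111 of control, and SESN2, DDIT4 and VLDLR rose 1.93-fold, 1.9-fold and 1.46-fold (limma adjusted p of at most 7.0e-04), although a second probe of VLDLR did not pass (0.037, limma adjusted p = 0.885). ASNS was much lower than after IPPK siRNA (-1.85, limma adjusted p = 1.3e-09) and a little higher than after DBP5 siRNA (0.23, limma adjusted p = 0.0032). Chaperones of the endoplasmic reticulum and genes of the unfolded protein response were split, with 7 of 25 lower, 6 higher and 12 not past (median 0.057). The chaperone genes HSPA5 and CALR and the adaptor gene SEL1L rose 2.12-fold, 1.91-fold and 1.4-fold, and SYVN1, XBP1 and HSP90B1 were at 0.584 ± 0.075, 0.652 ± 0.0236 and 0.716 ± 0.087 of control (limma adjusted p of at most 0.00108). Neither of 2 other SEL1L probes passed (0.21 and 0.18, limma adjusted p = 0.363 and 0.18).

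In metabolism, 14 of 26 genes of cholesterol and mevalonate synthesis and its control rose and 6 fell (median 0.25). Squalene epoxidase (SQLE), SREBF2, the transcription factor of the pathway, and MSMO1 rose 3.32-fold, 2.68-fold and 2.23-fold (limma adjusted p of at most 7.4e-07), while EBP and TM7SF2 were at 0.429 ± 0.00701 and 0.512 ± 0.00491 of control (limma adjusted p = 6.4e-09 and 3.9e-06; the log2 fall of TM7SF2 was -0.63 with the deposited values, against -0.97 here). Of 20 genes of glycolysis and its transporters, 9 rose and 4 fell (median 0.17), with the phosphofructokinase gene PFKM, the glucose transporter gene SLC2A1 and GPI 3.47-fold, 2.63-fold and 1.64-fold higher and the lactate exporter SLC16A3, PFKFB3 and PGAM1 at 0.51 ± 0.0391, 0.588 ± 0.0175 and 0.697 ± 0.0367 of control (limma adjusted p of at most 0.00175). Another probe of PFKFB3 was higher (0.46, limma adjusted p = 0.0436) and their mean did not pass (limma adjusted p = 0.214), so its direction is open. Of 70 nuclear genes of oxidative phosphorylation, 34 rose and 12 fell, by small amounts (median 0.15). The accessory subunit NDUFA11 was at 2 ± 0.101, UQCR11 at 1.88 ± 0.0658 and NDUFA13 at 1.64 ± 0.00413, and the core subunit NDUFS1 was at 0.66 ± 0.00508 and COX5B at 0.757 ± 0.0533 of control (limma adjusted p of at most 2.9e-04). Of 75 mitochondrial ribosomal protein genes, 35 fell and 21 rose (median -0.12), from MRPS34 at 0.321 ± 0.0109 to MRPS14 at 1.92 ± 0.0291 of control (limma adjusted p = 1.6e-08 and 8.0e-08). Lysosomal genes were higher in 18 and lower in 6 of 35 cases (median 0.34, or 0.20 without control array 2), with SCARB2 2.9-fold higher (limma adjusted p = 2.2e-07). Autophagy genes were higher in 12 and lower in 7 of 29 cases (median 0.094). ATG5 and ATG12, whose products are joined to each other, were at 0.223 ± 0.00671 and 0.571 ± 0.0124 of control, and the cargo receptor gene OPTN rose 2.01-fold (limma adjusted p of at most 1.0e-06). Another probe of ATG12 did not pass (0.23, limma adjusted p = 0.117).

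The RNA machinery itself was described list by list, since GLE1 acts in mRNA export. Of 30 nuclear pore genes, 11 fell, 11 rose and 8 did not pass (median -0.046). Beside NUP155, the falls were largest in NUP85 (0.501 ± 0.0238 of control) and AAAS (0.513 ± 0.00979), and the rises in NDC1 (2.72-fold), which anchors the pore in the membrane, NUP58 (2.54-fold) of the central channel and AHCTF1 (2.43-fold), which starts pore assembly (limma adjusted p of at most 9.0e-06). Another probe of AHCTF1 did not pass (-0.28, limma adjusted p = 0.182). Of 55 export factors and transport receptors, 27 fell and 17 rose (median -0.18, or -0.10 as means over probes). NXT2, a cofactor of the mRNA export receptor, stood at 6.85, 7.05 and 6.83 and rose to 9.95, 9.94 and 9.97. It was high on every GLE1 siRNA array (8.23-fold, limma adjusted p = 3.3e-09), while a dimmer NXT2 probe rose 2.08-fold, and the level of the first did not differ past limma from that after DBP5 siRNA (log2 difference 0.036, limma adjusted p = 0.81). KPNA3 and XPO7 rose 2.35-fold and 2.19-fold, and TNPO3, which imports splicing factors, and CETN3, of the export complex at the pore basket, were at 0.309 ± 0.0118 and 0.459 ± 0.00847 of control (limma adjusted p of at most 7.8e-08). Of 30 DEAD-box helicases, 14 fell and 8 rose (median -0.084), with DDX27, DDX10 and DDX50 at 0.499 ± 0.0145, 0.542 ± 0.0203 and 0.551 ± 0.0456 of control and DDX52, EIF4A2 and DDX6 2.79-fold, 2.01-fold and 1.45-fold higher (limma adjusted p of at most 7.8e-04). The log2 fall of DDX50 was -0.35 with the deposited values, against -0.86 here.

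Splicing factors were lower more often, with 41 of 64 lower and 11 higher (median -0.36). HNRNPA3 stood at 15.64, 15.71 and 15.58 and fell to 13.85, 13.88 and 13.83, and SF3B6 rose from 12.58, 12.69 and 12.61 to 14.70, 14.59 and 14.56. Both were free of overlap (0.29 ± 0.00591 and 3.97 ± 0.2 of control, limma adjusted p = 5.2e-10 and 3.4e-09). SNRPF and HNRNPDL were at 0.353 ± 0.00698 and 0.395 ± 0.0425, and SRSF9 and HNRNPUL1 rose 3.1-fold and 3.02-fold (limma adjusted p of at most 1.5e-07). Of 5 probes of HNRNPA3, 4 were lower and 1, the dimmest, was higher (0.72, limma adjusted p = 2.6e-05), and of 2 probes of HNRNPDL the dimmer was higher (0.38, limma adjusted p = 4.2e-04). As means over their probes both genes were lower (-0.84 and -0.48, limma adjusted p = 7.1e-07 and 2.4e-05). Of 46 genes of RNA decay, 27 fell and 11 rose (median -0.25). UPF3B, which links nonsense-mediated decay to exon junctions, went from 9.82, 10.05 and 9.87 to 7.10, 6.96 and 6.74, low on all 3 GLE1 siRNA arrays (0.126 ± 0.0157 of control, limma adjusted p = 3.2e-09), and its paralog UPF3A was at 0.38 ± 0.0251 (limma adjusted p = 5.9e-07). The decapping enzyme DCP2 was at 0.323 ± 0.0122 of control, while the 5′ to 3′ exonucleases XRN1 and XRN2 rose 2.38-fold and 1.65-fold and the deadenylation adaptor TOB1 2.5-fold (limma adjusted p of at most 1.3e-05). Stress granule proteins fell in 9 and rose in 8 of 24 cases (median -0.022), with G3BP2 3.34-fold and CAPRIN1 1.85-fold higher and CIRBP, FXR1 and PUM2 at 0.491 ± 0.04, 0.548 ± 0.0647 and 0.617 ± 0.0213 of control (limma adjusted p of at most 9.5e-04).

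**Figure D5:**
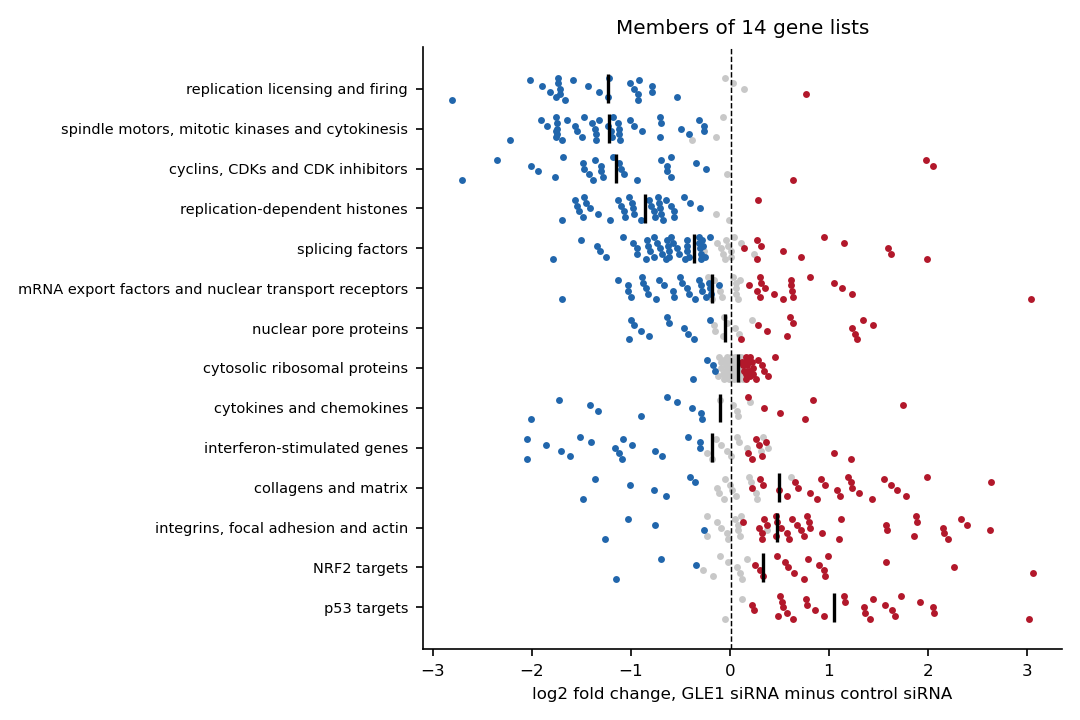
Log2 fold change (GLE1 siRNA minus control siRNA, horizontal axis) of each member kept of 14 gene lists; blue points were lower and red points higher by limma, grey points did not pass, black bars are list medians and the dashed line is the median of all genes. Replication, spindle and histone genes lie mostly to the left, p53 targets to the right, export factors on both sides with NXT2 at 3.04, and ribosomal protein genes near 0.

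Most cytosolic ribosomal protein genes did not pass. Of 78, 53 did not pass, 21 rose and 4 fell (5.13% lower against 31.5% of all genes; median 0.086), and log2 fold changes ran from -0.37 to 0.46. The ends were RPS6, at 0.775 ± 0.0222 of control, and RPL22, at 1.37 ± 0.0486 (limma adjusted p = 1.7e-05 and 1.7e-04). The size of this median moved with the processing. It was 0.006 with quantile normalisation, 0.007 with the deposited values, 0.042 with normexp and 0.072 with scaling to the 75th percentile. Leaving out control array 2 or 3 gave 0.055 or 0.112. Of 48 translation factors, 12 fell and 19 rose (median 0.072). Subunits of the same initiation factor went in opposite directions, with EIF3A at 0.233 ± 0.0067 of control and EIF3L and EIF3J 4.35-fold and 3.36-fold higher (limma adjusted p of at most 7.9e-09). EIF5B and the release factor ETF1 were at 0.413 ± 0.00941 and 0.566 ± 0.2, and EIF5A rose 4.14-fold (limma adjusted p of at most 0.00696). The log2 fall of ETF1 was -0.50 without GLE1 siRNA array 1, against -0.82 with it, and did not pass with a paired t-test (adjusted p = 0.188; limma adjusted p = 0.00696). Of 39 proteasome genes, 24 fell and 5 rose (median -0.21), with PSMC1, PSMB6 and PSMA3 at 0.521 ± 0.00788, 0.613 ± 0.00864 and 0.614 ± 0.0209 of control and PSMD8, POMP and PSMB5 2.01-fold, 1.84-fold and 1.62-fold higher (limma adjusted p of at most 3.0e-04). Of 48 genes of membrane traffic, 11 fell and 18 rose (median 0.070), among them the coat genes SEC13 and SEC23A, 2.4-fold and 2.37-fold higher, and SNAP23, at 0.394 ± 0.00475 of control (limma adjusted p of at most 4.9e-07). Of 11 histone deacetylases, HDAC1 and HDAC3 fell, to 0.386 ± 0.0178 and 0.699 ± 0.041 of control, and 4 rose (median 0.025), with HDAC9, HDAC6 and HDAC11 1.69-fold, 1.38-fold and 1.25-fold higher (limma adjusted p of at most 0.00497). Another probe of HDAC6 was lower (-0.99, limma adjusted p = 4.8e-08), so its direction is open.

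The fraction and the cell type were checked by markers. Of the nuclear-retained RNAs set for this, NEAT1 and TUG1 had no probe by that name, and neither had mitochondrially encoded mRNAs. MALAT1 stood at 8.54, 8.67 and 8.37 on the control arrays and at 8.42, 7.64 and 8.54 on the GLE1 siRNA arrays (ratio 0.798 ± 0.25, limma adjusted p = 0.285). The arrays of MALAT1 scattered widely and overlapped, so a difference in nuclear RNA was not detectable by it. KCNQ1OT1 went from 12.33, 12.38 and 12.43 to 13.20, 13.24 and 13.22 (1.8-fold, limma adjusted p = 1.8e-06) and MEG3 from 10.68, 10.52 and 10.45 to 10.93, 10.82 and 10.85 (1.24-fold, limma adjusted p = 0.0109). Both were higher on the GLE1 siRNA arrays by these probes, but not past limma as means over all probes of the gene (0.14 and 0.007, limma adjusted p = 0.318 and 0.983), and a second MEG3 probe gave -0.30. The part of nuclear RNA in the other changes was not tested. In the list of 17 such RNAs and hosts of small RNAs, 9 rose and 4 fell (median 0.19), the log2 of their summed intensity was 18.77, 18.83 and 18.75 on the control and 19.18, 19.17 and 19.15 on the GLE1 siRNA arrays, and the brightest was GAS5. MIR22HG, DANCR and SNHG1 rose 3.23-fold, 2.27-fold and 1.86-fold, and EPB41L4A-AS1, SNHG12 and SNHG7 were at 0.751 ± 0.0315, 0.772 ± 0.0259 and 0.81 ± 0.013 of control (limma adjusted p of at most 6.7e-04). SNHG1 was also higher than after DBP5 and IPPK siRNA (1.55 and 1.43, limma adjusted p = 1.8e-08 and 2.0e-08).

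For the cell type, 12 of 13 markers of the osteoblast lineage were well above background on all 3 control arrays, with SPARC the brightest. Osteopontin (SPP1) fell to 0.229 ± 0.0149 of control and SPARC to 0.755 ± 0.0483, and osteocalcin (BGLAP), PRRX1 and CDH11 rose to 1.77 ± 0.0696, 1.71 ± 0.13 and 1.25 ± 0.133 (limma adjusted p of at most 0.0411). CDH11 did not pass with the slide as a block (limma adjusted p = 0.0588), nor in 8 other settings, among them the deposited values and 4 of 6 fits with 1 array left out (limma adjusted p of up to 0.138). The other 7 did not pass, and the median over all 12 markers kept was 0.038. The log2 of the summed intensity of these markers was 13.96, 14.08 and 13.99 on the control and 13.71, 13.85 and 13.90 on the GLE1 siRNA arrays. Of 10 epithelial markers, 8 were well above background on all control arrays and 9 on all GLE1 siRNA arrays, and KRT18 was the brightest. CLDN4, a claudin of tight junctions, rose from 11.12, 11.16 and 11.14 to 14.36, 14.43 and 14.37, with every GLE1 siRNA array above control (9.51-fold, limma adjusted p = 1.8e-09). KRT19 and KRT14 rose to 1.79 ± 0.154 and 1.68 ± 0.16, and KRT18 fell to 0.674 ± 0.0141 of control (limma adjusted p of at most 6.1e-04; list median 0.39, or 0.086 with the deposited values, where the log2 rise of KRT19 was 0.51 against 0.84 here). The log2 of the summed intensity of the epithelial markers was 17.32, 17.25 and 17.40 and 17.05, 17.05 and 17.08, lower on the GLE1 siRNA arrays although 5 of 9 members rose, with KRT18 as the brightest member. CDH1 was not well above background on any control array, so its rise is a bound, although it is counted among the 5. Over the epithelial markers well above background on all 12 arrays, the list median was 0.196. Of 8 blood cell markers kept, 1 fell and 1 rose, CD4 (1.14-fold, limma adjusted p = 0.00839, which did not pass with normexp, 0.0594, or a paired t-test, 0.0822), and of 5 endothelial markers, TEK and VWF rose, 1.76-fold and 1.45-fold (limma adjusted p = 0.00142 and 2.5e-04; list medians 0.081 and 0.54, the latter 0.13 with the deposited values). All 5 endothelial markers were well above background on all GLE1 siRNA arrays, but 4 on all control arrays. Over those well above background on all 12 arrays, the endothelial median was 0.102. The rises of TEK and VWF were 0.45 and 0.33 with the deposited values, against 0.81 and 0.54 here, and TEK did not pass with a paired t-test (adjusted p = 0.0989). The log2 of the summed intensity was 13.95, 13.87 and 13.94 on the control and 14.06, 14.13 and 14.19 on the GLE1 siRNA arrays for blood cell markers, with CD4 the brightest. For endothelial markers it was 10.08, 10.06 and 10.01 and 10.17, 10.22 and 10.27, with ENG the brightest. Both sums were higher on all GLE1 siRNA arrays than on any control array.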

How the data were processed

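RNA of the cytoplasmic fraction of U2OS cells was hybridised to 12 one-colour Agilent 44K arrays on 3 slides, each with 1 array of every siRNA. The authors deposited array files whose processed signal is a spot intensity with local background subtracted by Feature Extraction, not normalised between arrays. The authors also deposited a table of log2 values normalised by LOESS in R. Those values follow log2 of the median spot signal without subtraction (r of at least 0.9998 per array, against 0.961 to 0.967 for the subtracted signal), and their column medians are 7.75 to 7.76.

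Here log2 of the subtracted intensity was normalised by cyclic loess, and groups were compared with limma 3.58.1 (R 4.3.3) over all 12 arrays, 1 mean per siRNA, with p-values from two-sided tests adjusted by Benjamini and Hochberg across the genes kept and a threshold of 0.05. Tables were made with Python 3.11.15 and pandas 2.3.3, figures with matplotlib 3.10.9. The fit was tested on simulated data, where it recovered 153 of 200 changed genes (76.5%) and made 8 false calls. The simulation had independent arrays without a slide effect, and 200 of 20821 genes changed, by 1.5-fold or 2-fold. In the data 62% of genes passed and arrays of a slide correlated, so these rates do not carry over. The array design is annotated on hg19; of 34127 probes for genes (ControlType 0), 77.5% were named here through their RefSeq accession in the GRCh38.p14 table, for names only, and the others keep the name in the file. The brightest probe stands for each of 27522 gene names, and 20821 were kept, of which 18425 were well above background on all 12 arrays.

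Array numbers follow slides. After the group means were removed, arrays with the same number correlated in all 18 pairs from different siRNAs (r 0.318 to 0.513, median 0.38). For control with GLE1 siRNA these were 0.328, 0.37 and 0.348. All 12 arrays correlated best with their own number. Arrays with different numbers gave -0.285 to -0.0495 (36 pairs, median -0.198). Removing the group means itself makes these values negative when arrays with the same number correlate.

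The text names GLE1 and 7 partners, then the 12 largest falls apart from GLE1 and the 12 largest rises. These were past limma, well above background on all 6 arrays and without overlap of the groups. Accession-like, LOC and ORF names were left out. Up to 3 falls and 3 rises per list under the same conditions are named too, and the 5 largest bounds each way. The MCM6, CLSPN, SPC25 and HMMR promoters follow from this rule, with a motif required and genes on chr8 left out. Some list members chosen by the rule are left unnamed. Genes repeated for the contrasts between knock-downs were chosen after their values were seen. Members and lists were chosen with earlier results of these data known. Alternatives were other scalings, normexp (offset 50), the deposited values, other filters, probe choices, the slide as a block, only the 6 arrays compared, leaving out each array and a paired t-test. Protein length was not analysed here, as no table of proteins was given. Missing from the arrays by name were 13 list members.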

Additional observations from a re-analysis of the deposited data

How the results depend on the processing

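The counts of 6549 lower and 6361 higher genes stayed within 1.5 times under every alternative: 6760 and 6009 with scaling to the 75th percentile, 6593 and 6294 with quantile normalisation, 6405 and 6129 with normexp, 6462 and 6189 with the deposited values, 8024 and 8028 over single probes, 4992 and 4824 with the paired t-test, and 6101 to 6254 and 5860 to 6114 when 1 array was left out. With the replicate block (slide) they were 6882 and 6797, and CDH11 was the named gene whose call it ended. The GLE1 fall ran from -3.51 to -3.16 with 1 array left out and was -1.91 with normexp and -1.85 with the deposited values.

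Of 4006 values for 281 other named genes, 3946 kept direction and side of the threshold, 39 were no longer past it (19 of them with the paired t-test), 1 (NUP88, with scaling to the 75th percentile) was newly past it and 20 changed sign. All 20 come from the choice of probe. As means over the probes of a gene these were BCL2A1 -0.001, HDAC6 -0.259, IPPK 0.386, PRIM2 -0.274 and WAPL -0.205. As single probes they were AHCTF1 -0.285, ATG12 0.235, BCL2A1 -1.036, BCL2L11 0.145, CENPP -0.392, HDAC6 -0.986, HNRNPA3 0.725, HNRNPDL 0.375, IPPK 1.056, LAMA4 0.063, MEG3 -0.3, OAS2 0.146, PFKFB3 0.462, PRIM2 -1.501 and WAPL -0.713. Of 750 list medians under alternatives, 611 moved by less than the spread between arrays, 139 moved further, in 37 lists, and none with most members on 1 side changed sign, while the medians near 0 of cytokines, histone deacetylases, osteoblast and blood cell markers did under some settings.

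The size of a change in a dim gene depends on how background is treated. All values come from 1 cell line, 1 time and 3 slides with fixed places. Neither the amount of RNA nor the phase of the cell cycle was measured on the arrays.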
